A study of Mus musculus with 9 samples.

Results

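The mitochondrial ribosomal protein genes were taken as the rows of the deposited expression table whose gene name begins with Mrpl or Mrps and a digit, without pseudogenes. The rule found 78 of 22399 rows, of which 49 are named for the large subunit (Mrpl) and 29 for the small subunit (Mrps). RNA-seq had been made from basal keratinocytes of mouse plantar skin, the cells that renew the epidermis, sorted as positive for CD49f (integrin alpha 6) and negative for CD34. All 9 libraries came from C57BL/6 animals of WT genotype, with 3 libraries per group. Control and HFD animals were both 5 months of age and differed in diet, which was normal for control and high in fat for HFD. Aged animals had reached 24 months, and their labels state no diet. Whether libraries of a group came from separate animals is not stated, so p-values measure the spread between these libraries, which may be technical. In such bulk samples, fewer cells of a type and less RNA per cell cannot be told apart.

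Mitochondrial ribosomes translate the few proteins encoded in mitochondrial DNA, all of them subunits of the respiratory chain and ATP synthase. Their ribosomal RNAs come from mitochondrial DNA, but every ribosomal protein is encoded in the nucleus, made in the cytosol and imported. Some of these proteins descend from bacterial ribosomal proteins and others are specific to mitochondria. The small subunit binds and decodes the mRNA, and the large subunit joins amino acids and carries the exit tunnel. Of the 78 genes, 47 encode relatives of bacterial ribosomal proteins and 30 encode mitochondria-specific proteins. Names do not always match position: the proteins of Mrps18a and Mrps30 sit in the large subunit, and Mrps36 encodes a protein now placed outside the ribosome.

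Some of these genes start near a gene on the opposite strand, and whether both share a promoter region was not tested. An opposite-strand protein-coding start lay within 1000 bases for 26 of 78 members (33.3%), against 13.3% of 10349 genes compared. The following sequences, from RefSeq on GRCm38.p6, show such starts and the promoters of members whose expression is described further on. Capitals mark a match to a motif, and positions count from the RefSeq transcription start, with negative numbers upstream.
Mrps18b, chr17:35916441-35916470, minus strand, positions -30 to -1: agcagccgccttccgcattgcggggcgtgt
Mrpl12, chr11:120484493-120484612, plus strand, positions -144 to -25: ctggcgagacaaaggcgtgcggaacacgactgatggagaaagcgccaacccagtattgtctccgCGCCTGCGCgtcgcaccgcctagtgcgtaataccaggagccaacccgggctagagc
Mrps22, chr9:98601680-98601799, minus strand, positions -120 to -1: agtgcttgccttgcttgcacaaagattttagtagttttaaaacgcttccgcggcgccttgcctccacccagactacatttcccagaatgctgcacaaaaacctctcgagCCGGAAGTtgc
Mrpl46 and Mrps11, the gap between both starts, chr7:78783090-78783118, plus strand: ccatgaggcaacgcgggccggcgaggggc
The gap is the distance between the chosen starts of a large and a small subunit gene that run in opposite directions. As annotated, Mrpl46 reaches to position 78783531, beyond the gap, and exons of both genes overlap by 173 bases. The Mrps18b stretch lies between Mrps18b and Ppp1r10, whose starts are 177 bases apart, and an exon of a Ppp1r10 transcript covers it.

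Promoters of 250 bases before to 50 bases after the start were listed for 69 members and, among the genes tested, for 8356 in all. They were searched on both strands for the cores of 4 motifs, chosen after the data had been seen. The ETS motif CCGGAAGT was present in 12 of 69 members (17.4%) and in 9.63% of all promoters. The NRF1 motif CGCNTGCGC was present in 16 members (23.2%) and in 15.6% of all, and the YY1 motif AAGATGGCG in 8 members (11.6%) and 3.75% of all. The ZNF143 motif ACTACAATT was present in 0 members and in 0.85% of all. At least 1 of the 4 was found in 34 members (49.3%) against 27.1% of all promoters, and in 0 members did matches to different motifs overlap. In the printed windows, Mrpl12 has its NRF1 match at -80 and Mrps22 its ETS match at -11. A match is a description of the letters only.

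Reads were found for every member in every library, at levels that spanned a wide range. FPKM (fragments per kilobase of gene length, scaled to library size) is a level per length, so genes can be compared on it. The large subunit genes had a median of 20.04 FPKM (quartiles 9.05 and 31.5) over the 9 libraries, and the small subunit genes 10.3 FPKM (quartiles 6.91 and 22.96). Mrpl52 had the highest mean, 71.7 FPKM, followed by Mrpl12 with 58.7 FPKM, whose protein forms the flexible stalk that recruits translation factors, and Mrpl54 with 53.4 FPKM. Among small subunit genes, Mrps21 averaged 39.7 FPKM, Mrps28 36.7 FPKM and Mrps18c 34.5 FPKM. The lowest were Mrpl23 with 0.901 FPKM, Mrpl1 with 4.09 FPKM and Mrpl47 with 4.63 FPKM in the large subunit, and Mrps33 with 3.10 FPKM, Mrps36 with 3.61 FPKM and Mrps10 with 4.52 FPKM in the small subunit.

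The length used for the deposited values moves this order. They fit the merged length of all exons of a gene, which exceeds the principal transcript by more than 2 times for 20 members. For Mrpl33 the merged exons span 7326 bases and the principal transcript 478, and rescaling to the latter moved its mean from 11.4 to 174.6 FPKM and its rank among the 78 from 49 to 2. Mrps10 moved from 4.52 to 35.8 FPKM and Mrpl23 from 0.901 to 6.36 FPKM by the same rescaling. The ratio of the large to the small subunit median was 1.95 as deposited, 1.53 per principal transcript length and 1.48 with the subunit taken from the protein's location. In single libraries the deposited ratio ran from 1.51 in HFD replicate 3 to 1.96 in HFD replicate 2.

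**Figure D1:**
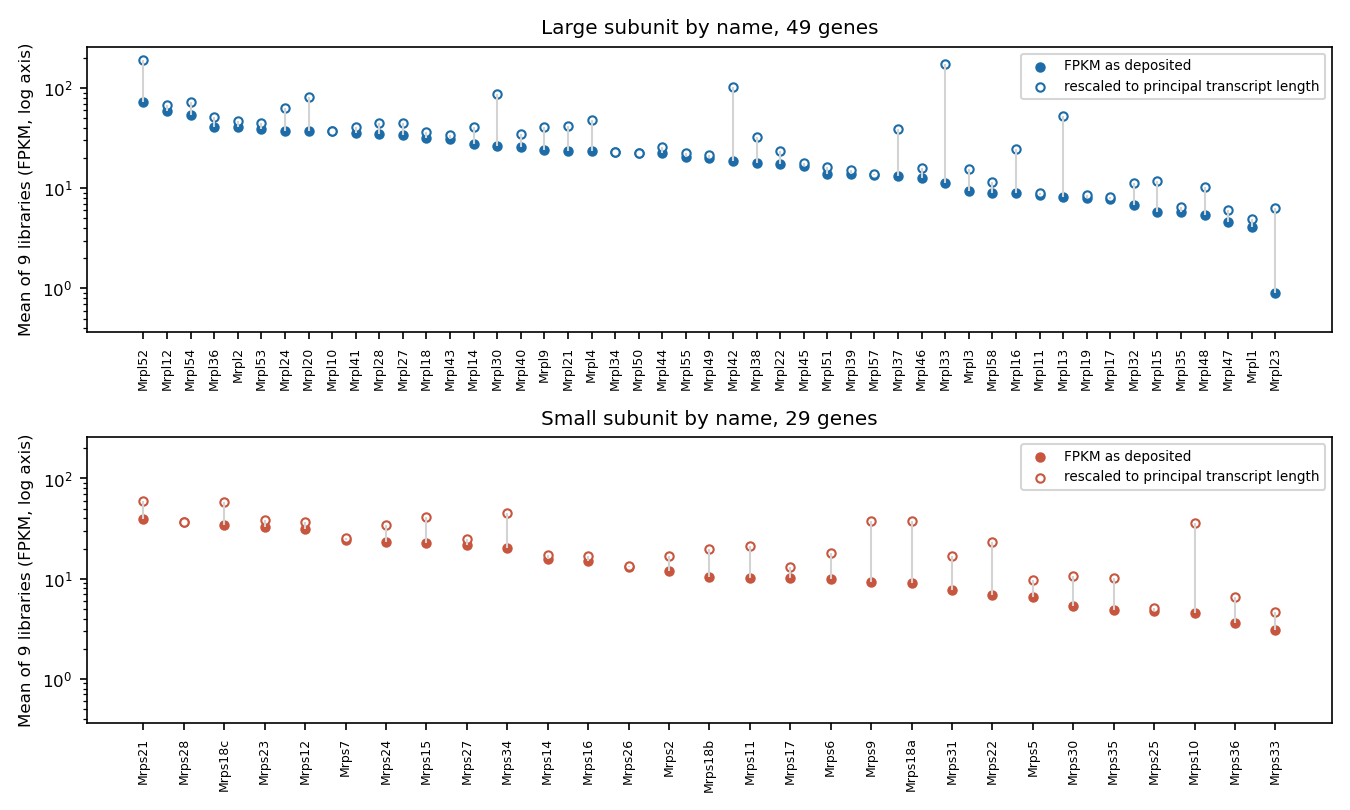
Mean FPKM over 9 libraries (log axis) of each large subunit gene (top) and small subunit gene (bottom), as deposited (filled) and rescaled to the principal transcript length (open), joined by a line. Mrpl52 leads on both scales, and Mrpl33 moves from 11.4 to 174.6 FPKM.

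Differences between groups were tested with limma on log2(FPKM + 1) over all 10367 genes whose mean reached 1 FPKM. A gene was called where its p, adjusted by Benjamini-Hochberg over these genes, was under 0.05, and changes are differences on that scale ± SE. All members but Mrpl23 passed this filter, so 77 were tested (48 large, 29 small). In HFD against control, 8 of 77 members were called (10.4%), against 17% of all genes tested. Mrpl39, Mrpl1 and Mrps22 rose (3 members, 3.9%, background 8.26%), and Mrps18b, Mrpl4, Mrpl12, Mrps26 and Mrps24 fell (5 members, 6.49%, background 8.76%). The calls were 4 of 48 large subunit genes (2 higher, 2 lower) and 4 of 29 small subunit genes (1 higher, 3 lower). The median change was 0.04 for all members, 0.08 for large subunit genes, -0.02 for small subunit genes and 0.01 for all genes tested. The 95% interval of the change lay within 1.5-fold for 72 of 77 members (93.5%), against 83.2% of all genes. The count fell to 1, Mrps18b, without control replicate 2, control replicate 3 or HFD replicate 1, to 2 without HFD replicate 2, to 4 without HFD replicate 3 and to 5 without control replicate 1. It was 4 after a correction for GC content and 3 with no filter on low values, and with scaling to total FPKM 1 rose and 7 fell. Calls over all genes fell as well, from 856 higher and 908 lower to 385 and 364 without control replicate 2. They were 631 and 599 without control replicate 3, 452 and 425 without HFD replicate 1, and 606 and 555 after the GC correction.

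**Figure D2:**
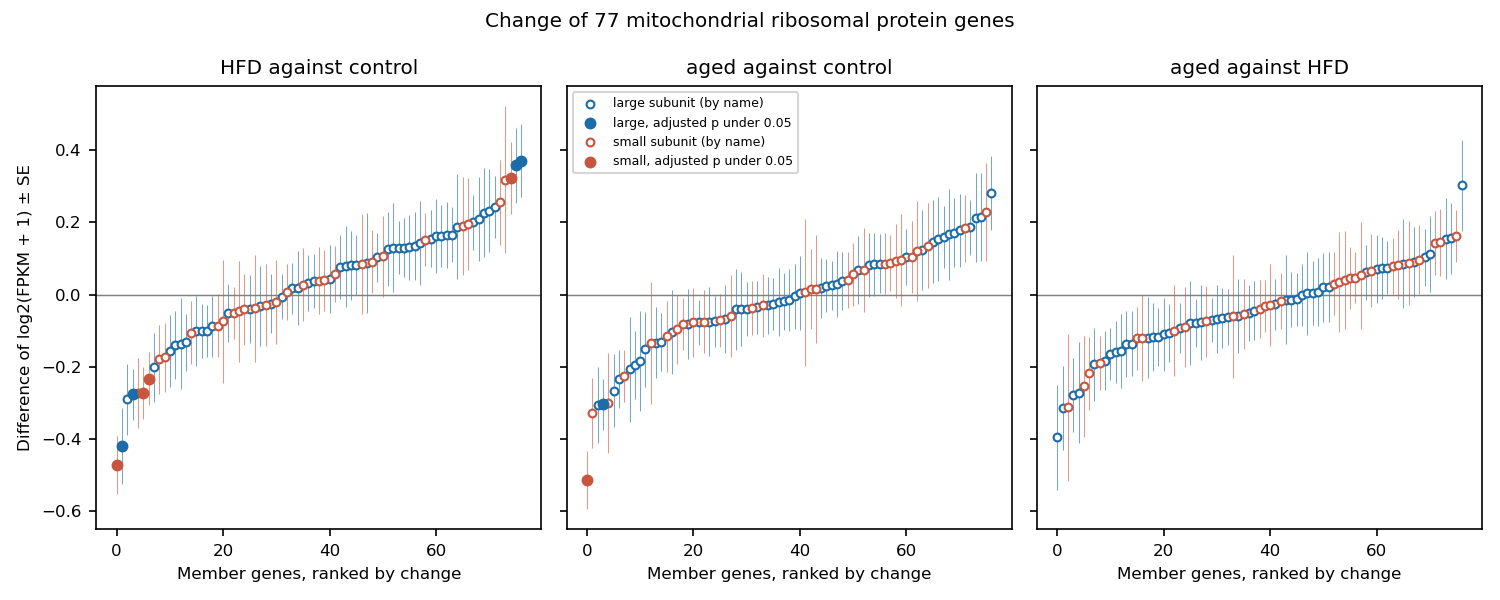
Difference of log2(FPKM + 1) ± SE for each of the 77 members tested, ranked within each comparison; blue marks large and red small subunit genes, and filled points have an adjusted p under 0.05. Filled points are 8 in HFD against control, 2 in aged against control and 0 in aged against HFD.

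Mrps18b encodes a protein of the small subunit, counted here among the mitochondria-specific ones. Its control libraries held 12.6, 14.2 and 12.3 FPKM, its HFD libraries 9.30, 9.52 and 8.45 FPKM and its aged libraries 8.56, 8.51 and 9.35 FPKM. All 3 control libraries lay above all 6 others, while the HFD and aged libraries overlapped. The gene fell by 0.47 ± 0.08 in HFD (adjusted p = 0.0042) and by 0.51 ± 0.08 in aged animals (adjusted p = 0.00435), and the aged against HFD difference was -0.04 ± 0.08 (adjusted p = 0.794). It was called in both comparisons with control under all 21 alternatives run, 9 of which left out a library. Of the 21, median-ratio scaling had the same factor, 1.003, in every library and so was almost no test of a call. Fits that left out a library of the group not compared kept the change itself as it was and altered only the estimate of spread. An antisense gene, Gm16279, overlaps 30.5% of its exon bases and 14.6% of its stretches of 50 bases occur in another gene, so its level is uncertain where reads could be split. Ppp1r10, which starts 177 bases away on the other strand, differed by 0.18 ± 0.09 in HFD (adjusted p = 0.198) and 0.03 ± 0.09 in aged animals (adjusted p = 0.877).

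Mrpl12 was the other member called in both comparisons, which share their control libraries. Control libraries held 64.7, 67.1 and 69.1 FPKM, HFD libraries 56.8, 54.1 and 54.4 FPKM and aged libraries 56.7, 56.3 and 49.5 FPKM. The control values stood above all others without overlap. Mrpl12 fell by 0.28 ± 0.07 in HFD (adjusted p = 0.0233) and by 0.30 ± 0.07 in aged animals (adjusted p = 0.0267). Neither call was kept after the GC correction, and over the alternatives that kept all replicates the highest adjusted p was 0.2 in HFD and 0.0883 in aged animals. Of the 9 fits that left out a library, 4 kept the HFD call and 6 the aged call. An antisense gene, Gm16755, overlaps 13.05% of the exon bases of Mrpl12.

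Mrpl4 encodes the relative of bacterial L4, which reaches into the exit tunnel. It held 23.1, 29.9 and 30.1 FPKM in control, 19.4, 20.4 and 21.2 FPKM in HFD and 20.02, 21.8 and 24.5 FPKM in aged libraries. HFD values lay below all control values, and aged values overlapped control replicate 1. Mrpl4 fell by 0.42 ± 0.11 in HFD (adjusted p = 0.022), and the aged difference was -0.31 ± 0.11 (adjusted p = 0.0957), which passed the test without control replicate 1 or aged replicate 3. The HFD call of Mrpl4 was kept in 5 of the 9 fits that left out a library.

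Mrps26, a mitochondria-specific small subunit protein gene, held 14.1, 14.8 and 15.5 FPKM in control, 11.3, 12.8 and 12.1 FPKM in HFD and 12.4, 12.8 and 12.4 FPKM in aged libraries. Both groups lay below control without overlap. It fell by 0.27 ± 0.07 in HFD (adjusted p = 0.0251), and the aged difference was -0.23 ± 0.07 (adjusted p = 0.0756). Mrps24, the relative of bacterial S3, held 26.0, 23.4 and 25.7 FPKM in control, 22.4, 20.7 and 20.3 FPKM in HFD and 22.6, 23.6 and 25.03 FPKM in aged libraries. HFD lay below control without overlap, and aged libraries overlapped control. Mrps24 fell by 0.23 ± 0.07 in HFD (adjusted p = 0.0484), and Urgcp overlaps 15.4% of its exon bases on the same strand. Of the 9 fits that left out a library, 5 kept the HFD call of Mrps26 and 1 that of Mrps24. The Mrps24 call was lost whenever a control or HFD library was left out.

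Mrpl39, a mitochondria-specific large subunit protein gene, held 13.3, 11.4 and 11.4 FPKM in control, 17.4, 16.6 and 13.7 FPKM in HFD and 14.6, 14.1 and 12.5 FPKM in aged libraries. HFD values lay above control, HFD replicate 3 by little, and aged values overlapped both groups. Mrpl39 rose by 0.37 ± 0.10 (adjusted p = 0.0285). Mrpl1 encodes the relative of bacterial L1, in the stalk where spent tRNAs leave. It held 3.28, 3.55 and 3.24 FPKM in control, 5.00, 4.89 and 3.92 FPKM in HFD and 4.88, 4.11 and 3.93 FPKM in aged libraries. HFD and aged values both lay above control. Mrpl1 rose by 0.36 ± 0.10 in HFD (adjusted p = 0.0369), and the aged difference was 0.28 ± 0.10 (adjusted p = 0.116). Mrps22, a mitochondria-specific small subunit protein gene, held 6.41, 5.34 and 6.65 FPKM in control, 8.16, 7.90 and 7.64 FPKM in HFD and 7.51, 5.80 and 6.73 FPKM in aged libraries. HFD values lay above both other groups. Mrps22 rose by 0.32 ± 0.10 in HFD (adjusted p = 0.0473). Of the 9 fits that left out a library, 5 kept the Mrpl39 call, 4 the Mrpl1 call and 3 the Mrps22 call. The Mrps22 call was lost whenever a control or HFD library was left out.

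**Figure D3:**
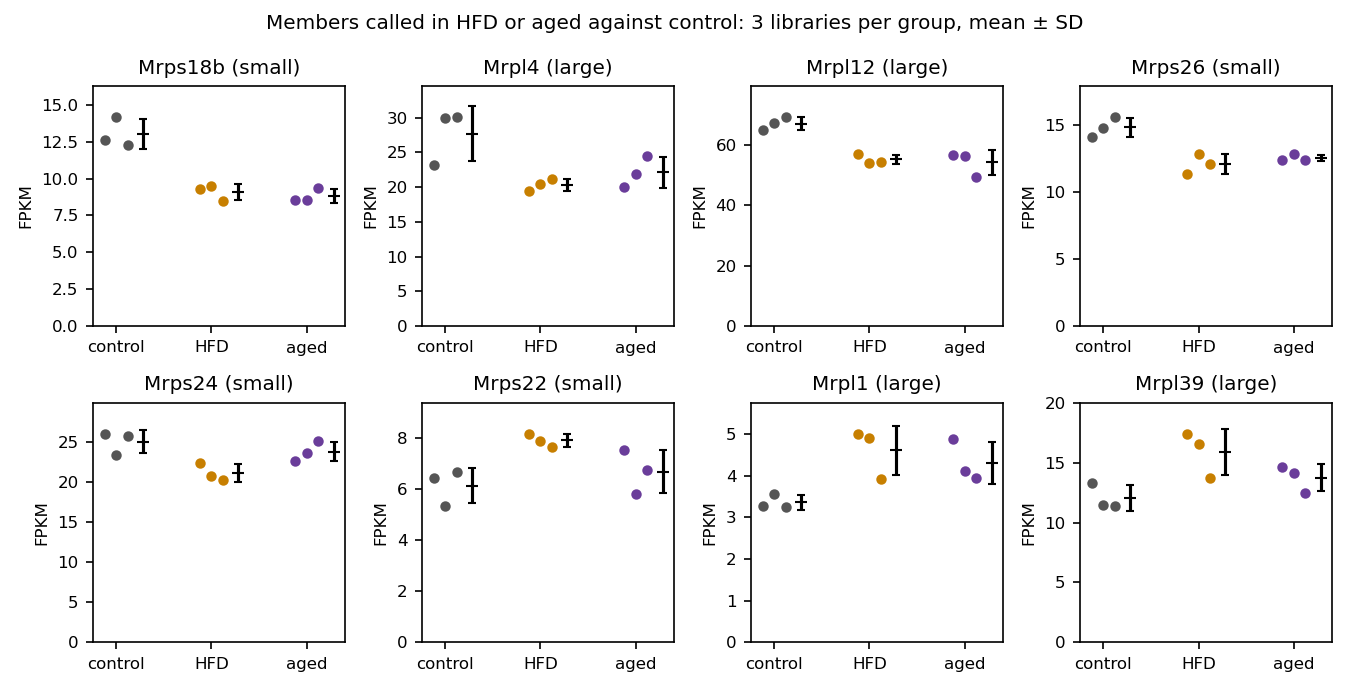
FPKM of the 8 called members in the 3 libraries of each group (points), with mean ± SD beside them; each panel's axis starts at 0. Mrps18b is lower in all 6 HFD and aged libraries than in the 3 control libraries, and Mrps22 is highest in HFD.

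The other members with the largest HFD differences were not called. Lower values were seen for Mrpl55 (-0.29 ± 0.10, adjusted p = 0.0646) and Mrps12 (-0.27 ± 0.10, adjusted p = 0.074), the gene for the relative of bacterial S12 in the decoding centre. Higher values were seen for Mrpl50 (0.24 ± 0.09, adjusted p = 0.0739), Mrps36 (0.32 ± 0.20, adjusted p = 0.297) and Mrps6 (0.26 ± 0.12, adjusted p = 0.152). The 2 groups did not overlap for 25 of 77 members (32.5%), against 40.4% of all genes. Mrpl23 held 1.28, 1.503 and 0.85 FPKM in control, 0.58, 0.74 and 0.53 FPKM in HFD and 0.75, 1.04 and 0.83 FPKM in aged libraries, and was not tested in the main fit. Its HFD values lay below control, and aged values overlapped control. With no filter on low values Mrpl23 was tested too, and it was not called in any comparison.

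In aged against control, 2 of 77 members were called (2.6%), against 7.76% of all genes: Mrps18b and Mrpl12, both lower (background for lower calls 3.74%). The median change was -0.01 for all members, -0.02 for large and 0.01 for small subunit genes. Mrps12 came nearest among the others, at -0.33 ± 0.10 (adjusted p = 0.0632), with 35.3, 33.9 and 37.6 FPKM in control, 31.0, 30.8 and 26.2 FPKM in HFD and 25.01, 27.8 and 32.0 FPKM in aged libraries. Control values lay above both other groups. Mrps11 (-0.30 ± 0.14, adjusted p = 0.201) and Mrpl37 (-0.27 ± 0.10, adjusted p = 0.122) were lower, and Mrps18c (0.23 ± 0.14, adjusted p = 0.312), Mrpl33 (0.22 ± 0.12, adjusted p = 0.293), Mrpl32 (0.21 ± 0.12, adjusted p = 0.303) and Mrps35 (0.18 ± 0.09, adjusted p = 0.235) higher, without passing the test. Groups did not overlap for 12 members (15.6%, background 27.8%). The count was 1 without control replicate 2, control replicate 3 or aged replicate 2, and after the GC correction. It was 5 without aged replicate 3 and 5 with scaling to total FPKM. Over all genes, 416 higher and 388 lower calls became 592 and 662 without aged replicate 3. Without control replicate 2 they were 191 and 129, and after the GC correction 416 and 358.

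In aged against HFD, limma called 0 of 77 members, against 7.99% of all genes, and 8 members (10.4%) had an unadjusted p under 0.05, against 24.4% of all genes. Groups did not overlap for 9 members (11.7%, background 29.8%). The lowest value was that of Mrpl35, at -0.40 ± 0.15 (adjusted p = 0.121). It held 6.96, 6.19 and 6.89 FPKM in HFD and 3.48, 6.43 and 4.96 FPKM in aged libraries, where aged replicate 1 was the lowest and aged replicate 2 overlapped HFD. Mrpl51 (-0.31 ± 0.12), Mrpl46 (-0.28 ± 0.10), Mrps36 (-0.31 ± 0.20) and Mrps11 (-0.25 ± 0.14) were also lower, and Mrpl22 (0.30 ± 0.13), Mrps24 (0.16 ± 0.07), Mrpl11 (0.16 ± 0.11), Mrps35 (0.15 ± 0.09) and Mrps17 (0.14 ± 0.09) higher, none of them called. Without aged replicate 2, Mrpl35 and Mrps36 were called lower. The F test among the 3 groups called 4 members, Mrpl4, Mrps18b, Mrps26 and Mrpl12 (5.19%, background 20.4%).

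The median change of large minus small subunit genes was 0.10 in HFD against control, -0.02 in aged against control and -0.04 in aged against HFD. By library, the median deviation from the gene means was also compared between the subunits, as large minus small. It was -0.01, -0.06 and -0.03 in the control libraries, 0.08, 0.04 and 0.01 in HFD and 0.00, 0.04 and -0.00 in aged libraries. All 3 HFD values lay above the 3 control values, and the HFD and aged values overlapped. These are descriptions, and no test was made of them. The HFD value of 0.10 was 0.06 after the GC correction, 0.04 without control replicate 3 and 0.05 without HFD replicate 1. Among the libraries, HFD replicate 1 was the highest of 9 for 24 members (30.8%, against 12.5% of all genes), and aged replicate 3 the lowest for 18 (23.1%, against 10.6%). Control replicate 2 was the lowest for 15 (19.2%, against 13.3%). Summed member FPKM ran from 1420 in aged replicate 3 to 1620.4 in HFD replicate 1. What part these libraries have in the called members was not tested beyond leaving each out.

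**Figure D4:**
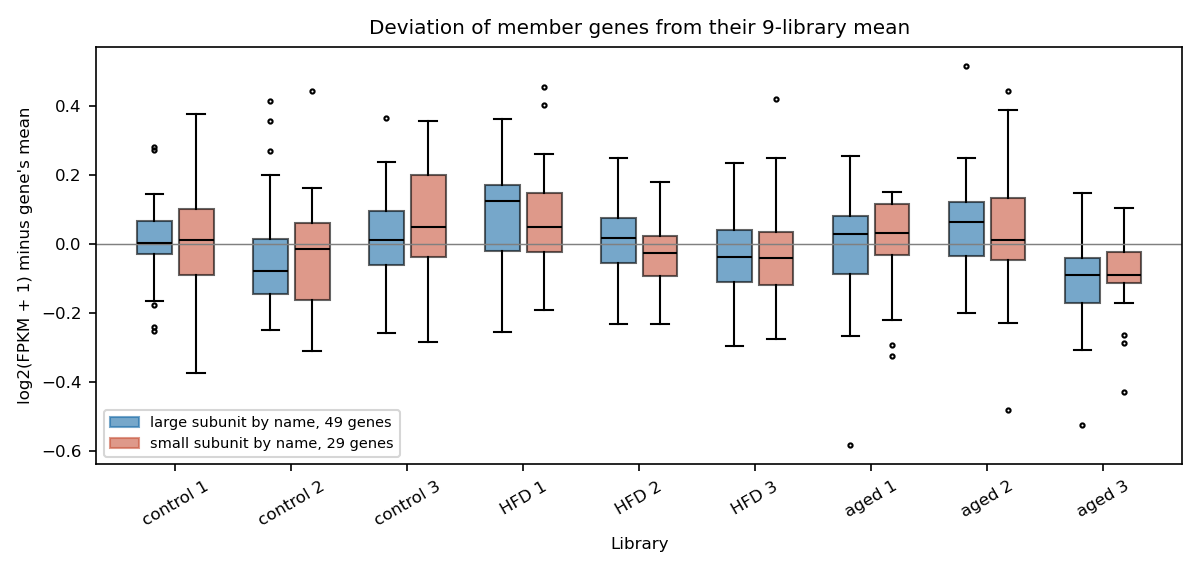
Deviation of log2(FPKM + 1) from each gene's mean over 9 libraries, for 49 large (blue) and 29 small (red) subunit genes in each library; boxes show quartiles, black lines medians, and whiskers reach 1.5 interquartile ranges. Over all members the median deviation was highest in HFD replicate 1 (0.09) and lowest in aged replicate 3 (-0.09).

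In both comparisons with control, changes of member genes moved with the GC content of their longest transcript, as those of all genes did. Spearman's rho across genes between change and GC content was -0.40 for 77 members and -0.46 for 10365 genes in HFD against control, and -0.40 and -0.33 in aged against control. In aged against HFD it was 0.06 for members and 0.22 for all genes. These genes share the same libraries and are not independent replicates. Members below the median GC content of 49.7% changed by a median of 0.09 in HFD, and the others by -0.03. After the GC correction the calls in HFD were Mrpl39, higher, and Mrpl4, Mrps18b and Mrps26, lower, and in aged animals Mrps18b.

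**Figure D5:**
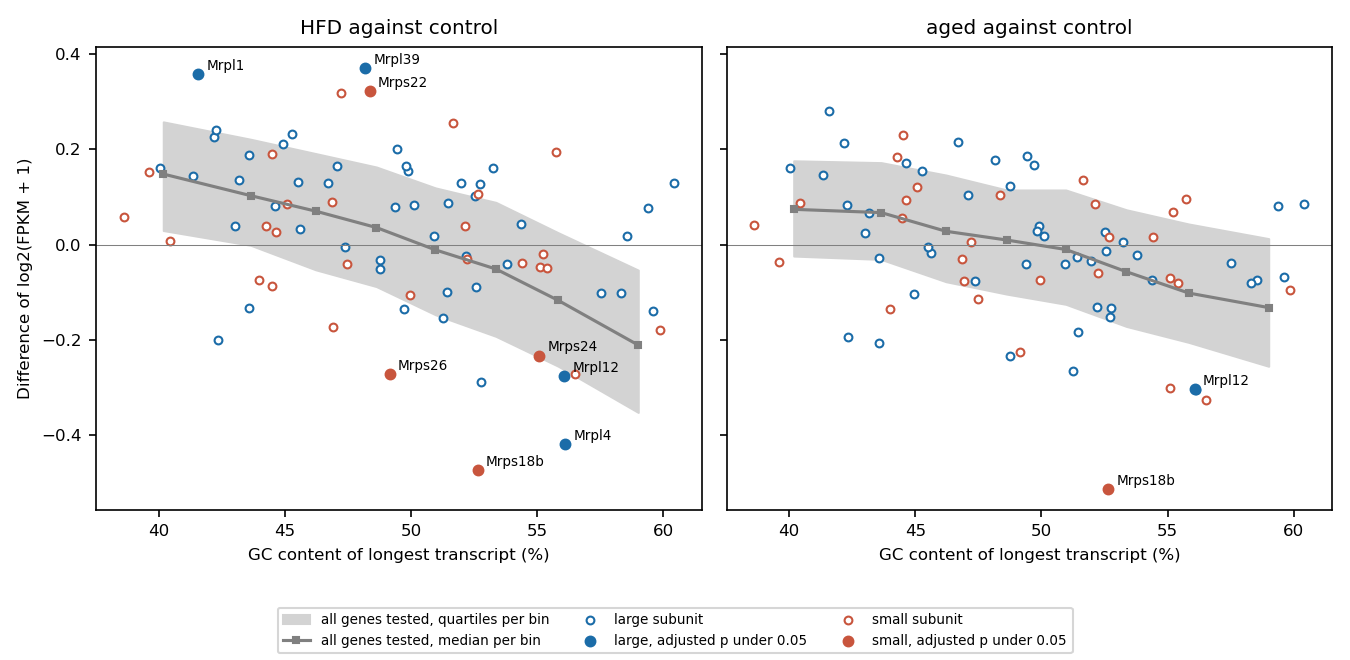
Difference of log2(FPKM + 1) against GC content of the longest transcript for the 77 members, with the median and quartiles of all genes tested in 8 bins of GC content (grey). The grey median falls from 0.15 in the lowest bin to -0.21 in the highest in HFD against control, and Mrps18b lies below it in both panels.

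Among genes that serve the same ribosome, 0 of 5 ribosomal protein genes with other names and 0 of 16 mitochondrial translation factor genes were called by limma in any comparison. The shares of all genes called were 17% in HFD against control, 7.76% in aged against control and 7.99% in aged against HFD. Of 27 assembly and rRNA modification genes, 2 fell in HFD, where 8.76% of all genes fell: Rbfa, a factor for small subunit maturation, by 0.45 ± 0.10 (adjusted p = 0.0112) and Mettl17 by 0.53 ± 0.12 (adjusted p = 0.0128). The Mettl17 call was lost without control replicate 2. Mtg1, a GTPase of large subunit assembly, rose by 0.47 ± 0.13 in aged against HFD (adjusted p = 0.0449), where 3.54% of all genes rose. The Mtg1 call was kept under 10 of 20 alternatives, and by 2 of the 9 that left out a library. Of 20 genes for mitochondrial aminoacyl-tRNA synthesis, which charge tRNAs for this ribosome, 6 fell in HFD and 4 in aged animals, and 0 rose, while 8.76% and 3.74% of all genes fell. Vars2 fell by 0.47 ± 0.08 in HFD (adjusted p = 0.00472) and by 0.29 ± 0.08 in aged animals (adjusted p = 0.0491), and Aars2 by 0.50 ± 0.11 (adjusted p = 0.0111) and 0.40 ± 0.11 (adjusted p = 0.0454). Tars2 fell by 0.33 ± 0.08 in both (adjusted p = 0.0195 and 0.0317). After the GC correction 4 synthetase genes were called lower in HFD and 2 in aged animals, and the calls lost were Aars2 and Sars2 in both and Vars2 in aged animals, where Cars2 was added. With no filter on low values the counts were 3 and 0. Leaving out 1 library moved the synthetase counts to between 2 and 6 in HFD and between 0 and 3 in aged animals. Counts over all genes moved too when a library was left out, as given above. The median change was -0.09 in HFD and -0.07 in aged animals, against 0.01 and -0.01 for all genes.

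Mrps12 and Sars2, the mitochondrial seryl-tRNA synthetase gene, start 232 bases apart on opposite strands. Both differed by -0.27 in HFD and by -0.33 in aged animals, and the test was passed by Sars2 (adjusted p = 0.0461 and 0.0378) but not by Mrps12. Both Sars2 calls were lost after the GC correction, with adjusted p = 0.594 in HFD and 0.0927 in aged animals, and each was kept in 2 of the 9 fits that left out a library. Mrpl46 and Mrps11, whose chosen starts are 30 bases apart, differed by 0.13 ± 0.10 and -0.05 ± 0.14 in HFD. In aged animals they differed by -0.15 ± 0.10 and -0.30 ± 0.14, and none of these differences was called. Of 24 neighbours tested, 2 were called in HFD, where 17% of all genes were called. For 12 of these 24, member and neighbour differed in the same direction in HFD, with Mrpl46 and Mrps11 counted from each side. Ska3, beside Mrpl57, rose by 0.42 ± 0.09 (adjusted p = 0.0133) while Mrpl57 differed by -0.20.

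The 79 cytosolic ribosomal protein genes tested had a median change of 0.10 in HFD and 0.15 in aged animals, with 1 and 2 called higher, while 8.26% and 4.01% of all genes were. The 80 nuclear respiratory chain and ATP synthase genes had 0.11 and 0.07, with 4 higher and 2 lower in HFD and 2 in each direction in aged animals, where the shares of all genes were 8.26% higher and 8.76% lower, and 4.01% and 3.74%. Depth, recovered from low values, was 23.5 to 35.8 M reads per library, and a member had 67 to 3583 reads, with a median of 1198.5. Basal keratinocyte markers summed to 23830 to 30570 FPKM in control, 26950 to 31610 in HFD and 23730 to 24820 in aged libraries, so that aged lay below HFD, while all 5 melanocyte and all 4 endothelial markers were under 1 FPKM in every library. Summed fibroblast markers were 4.51 to 6.64 FPKM in control, 1.498 to 2.55 in HFD and 3.48 to 4.45 in aged libraries, with 5 of 6 genes under 1 FPKM everywhere. Summed suprabasal markers were 6408 to 8142 FPKM in control, 6046 to 8454 in HFD and 7845 to 10910 in aged libraries, and hair follicle markers 5.595 to 9.34, 9.09 to 10.8 and 10.98 to 13.4 FPKM, with 4 of 5 under 1 FPKM everywhere. Merkel cell markers summed to 0.10 to 0.14, 0.64 to 1.154 and 0.64 to 1.27 FPKM, with 3 of 4 under 1 FPKM everywhere. The part of these cells in the member results was not tested.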

How the data were processed

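The authors deposited 1 table of FPKM for 9 libraries. Per the submitters' processing notes, the genome was mm10 and the tools were DESeq2 1.30.0, HTSeq 0.11.2, STAR 2.6.0c and cutadapt. Which of them made the FPKM, the gene lengths behind it and the strand setting of the counting are not given in the sources used here. Median-ratio factors of the deposited values were 1.003 in every library, so the values were already on a common median-ratio scale. Low FPKM values times merged exon length (GENCODE M21, GRCm38) gave whole reads within 0.02 for 97.45% to 98.25% of values up to 30 reads, which gave the depth. The pseudocount was 1, and limma 3.58.1 (R 4.3.3) was run on the log2 values in 1 fit, with eBayes and a trend, two-sided, on 6 residual plus 5.5 prior degrees of freedom. The steps were tested on simulated data first. The members and gene lists were chosen with earlier results of these data known. Named members were all that were called, the 3 largest and 3 smallest changes per subunit and comparison, the 3 highest and lowest per subunit by level, and any that missed the filter; of these, only the main ones are given for each comparison. From each gene list, up to 4 genes with the smallest p were eligible. Alternatives were a pseudocount of 0.1, other filters and scalings, library weights, robust eBayes, the 6 libraries compared, a replicate block, a GC correction by loess per library, and leaving out each library. Rescaling to principal transcript length and subunits by location, for levels, were chosen after seeing the data. Promoter motifs were also chosen then; a first search with longer forms of 3 of them found fewer members for the NRF1 and YY1 motifs and as many for the ZNF143 motif.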

Additional observations from a re-analysis of the deposited data

How the results depend on the processing

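Members called in HFD against control (8) were 4 after GC correction, 3 without the filter on low values, and 1 to 10 when 1 library was left out. Those in aged against control (2) were 5 with scaling to total FPKM, 1 with only the 6 libraries compared, 1 after GC correction with or without the replicate block, and 1 to 5 when 1 library was left out. Those in aged against HFD (0) were 0 to 2 when 1 library was left out. The F test (4) called 7 with the replicate block, 9 with library weights, 2 after GC correction and 1 to 8 when 1 library was left out. The replicate block gave 8 members in HFD, 3 in aged against control, with Mrpl4 added (adjusted p = 0.0308), and 0 in aged against HFD. Same-numbered libraries correlated at -0.05 to 0.27 and others at -0.29 to 0.22, and 5 of 9 libraries correlated best with their own number. Whether same-numbered libraries share an animal or batch is not stated, and the main fit did not pair them. With the block, 978 genes were called higher and 1083 lower in HFD, against 856 and 908 without it. In aged against control they were 557 and 580, against 416 and 388. Large minus small subunit change was 0.0996 in HFD, 0.0568 after GC correction with or without the block, and 0.0378 to 0.0996 when 1 library was left out. In aged against control (-0.0223) it was 0.024 by protein location, 0.01591 after quantile normalization, 0.0264 after GC correction with or without the block, and -0.0476 to 0.0346 when 1 library was left out; in aged against HFD it was -0.0749 to -0.0296. The level ratio of 1.95 became 1.53 and 1.48, as given above. Over all genes, scaling to total FPKM turned 856 higher and 908 lower calls in HFD into 597 and 1165, and 416 and 388 in aged animals into 360 and 507. With no filter, 598 and 597 were called in HFD. Leaving out a library moved the counts over all genes too, as given above. The causes were not tested.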

Other observations

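The mRNAs that mitochondrial ribosomes translate could be followed for 7 of 13 genes, since the others were listed at 0 or near it in all libraries and are uncertain. The complex I gene mt-Nd5 held 511.4, 445.1 and 405.0 FPKM in control, 574.9, 600.8 and 603.4 FPKM in HFD and 559.5, 531.6 and 518.4 FPKM in aged libraries. HFD and aged values lay above control. It rose by 0.39 ± 0.09 in HFD (limma, adjusted p = 0.0137), and the aged difference was 0.25 ± 0.09 (adjusted p = 0.104). No other of the 7 was called in any comparison, while 17% of all genes were called in HFD. Mt-Co1 differed by 0.18 ± 0.10 in HFD (adjusted p = 0.243) and mt-Cytb by 0.16 ± 0.11 (adjusted p = 0.323). The largest differences were those of mt-Nd6, at 0.61 ± 0.24 in HFD (adjusted p = 0.105) and 0.67 ± 0.24 in aged animals (adjusted p = 0.115).

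Among genes for mitochondrial DNA upkeep and for regulators of mitochondrial gene expression, 1 gene of each list was called, in 1 comparison each. Of 12 genes for mitochondrial DNA replication and transcription, Top1mt, a mitochondrial topoisomerase, rose by 0.34 ± 0.08 in aged against HFD (limma, adjusted p = 0.0217). There 3.54% of all genes rose, and the Top1mt call was kept in 5 of the 9 fits that left out a library. Of 9 regulator genes, Pprc1, a coactivator of the PGC-1 family, fell by 0.33 ± 0.08 in HFD (limma, adjusted p = 0.0157), where 8.76% of all genes fell. The Pprc1 call was not kept after the GC correction or without control replicate 2, HFD replicate 1 or HFD replicate 2.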
